A study of Mus musculus with 4 samples.

Results

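Genes of the goblet cell and of the mucin family were followed across 4 mouse RNA samples: an o-organoid, a y-organoid, isolated crypt and whole intestine. The 10 genes were Spdef, Agr2, Tff3, Spink4, Zg16, Fcgbp, Muc1, Muc3, Muc4 and Muc13, taken by gene name from the spots other than controls, and they were read by 12 of the 39429 probes and were 10 of the 30107 named genes or transcripts on the arrays. Both organoid samples were labelled as crypt-villus organoids, epithelial structures grown in culture. All 4 samples came from wild type mice of strain C57/BL6. The sources used here explain neither letter, y or o, and give neither the part of the intestine nor the culture conditions. The o-organoid array was labelled from 40 ng of RNA and the y-organoid, crypt and intestine arrays from 20 ng each, so the input and the o-organoid sample cannot be told apart. Each group was 1 Agilent 1-colour array, so no difference carries a test or an error between samples.

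Goblet cells are the mucus-secreting cells of the intestinal epithelium. They fill a store of granules with gel-forming mucins, trefoil peptides and other proteins, and the secretory programme that makes them from crypt progenitors depends on the transcription factors Atoh1 and Spdef. Transmembrane mucins are a different branch of the family: they stay anchored in the apical membrane, where they form part of the glycocalyx, and enterocytes carry several of them. The gel-forming Muc2 is the main mucin of intestinal mucus, but it was not matched to a probe here, so the mucus was followed through the proteins packed with it.

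Signals are log2 intensities with the array's own 75th percentile set to 0, and a difference is the first array minus the second. By the scanner software's flag, 51.9% to 58.7% of spots were well above background on an array. A dim probe, one that fails this flag, gives only a bound, the higher of its own signal and the dimmest signal that passed the flag on that array. Of the 12 probes, 11 were well above background on all 4 arrays, and the exception was the Muc1 probe. The scanner software flagged none of the member spots as saturated or as an outlier. Repeated spots of one probe gave a difference a technical SD of 0.13 for o-organoid and crypt, 0.18 for y-organoid and crypt, 0.17 for o-organoid and y-organoid and 0.16 for crypt and intestine. That spread covers spots of 1 array and leaves out labelling, hybridisation and the animals. Fewer goblet cells and less RNA per goblet cell cannot be told apart in these samples.

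**Figure D1:**
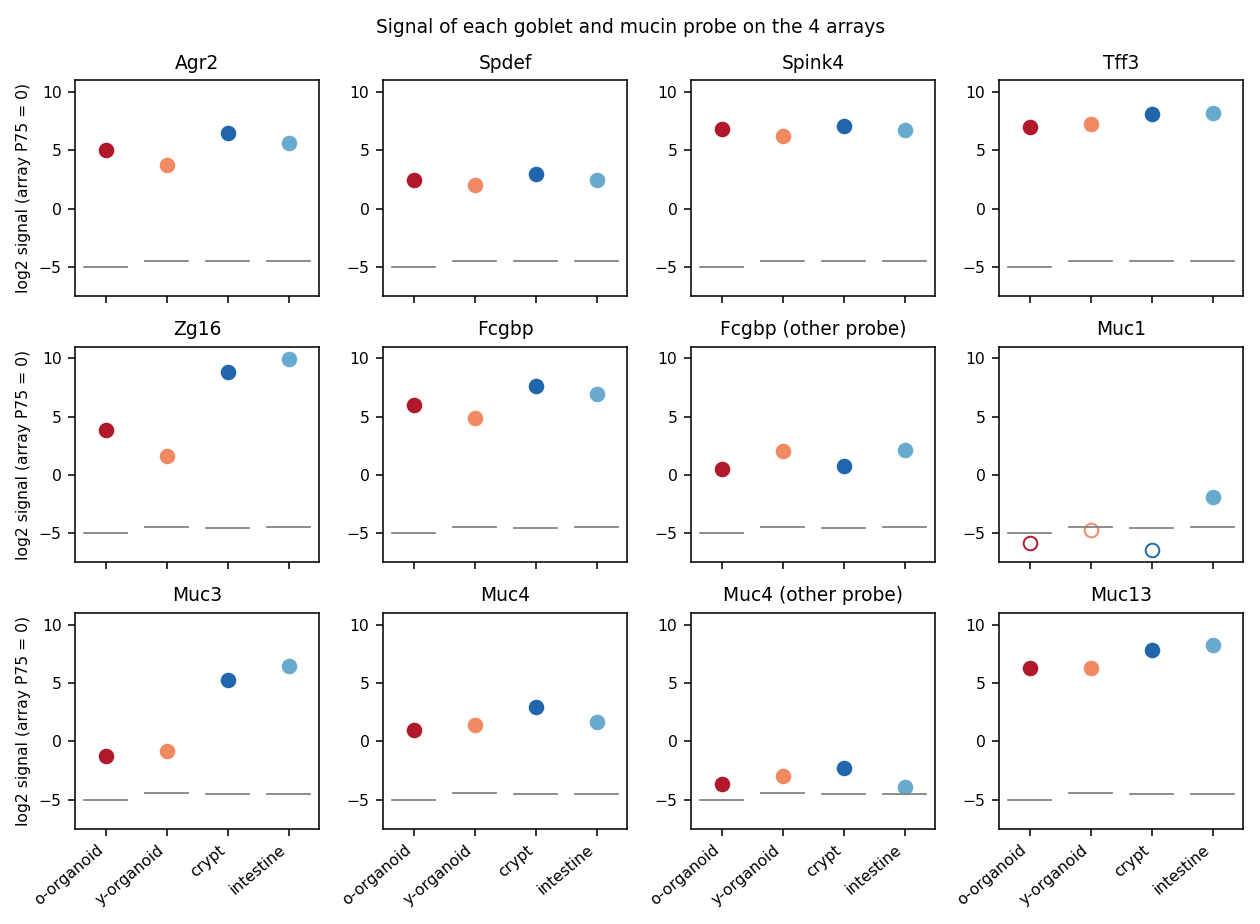
Signal of every member probe (log2, relative to the array's 75th percentile) on the o-organoid, y-organoid, crypt and intestine arrays, 1 point an array. Open points are not well above background, and grey lines give the dimmest signal that passed the background flag; Zg16 and Muc3 lie far below crypt and intestine on both organoid arrays, and Muc1 is a filled point on the intestine array alone.

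Spdef was within 2-fold of crypt on both organoid arrays, though not on y-organoid with the deposited value table (-1.38), while Agr2 was lower by more. Spdef, an ETS-family factor needed for goblet and Paneth cell maturation, had signals of 2.46 on the o-organoid, 2.06 on the y-organoid, 2.93 on the crypt and 2.42 on the intestine array. The crypt array was the highest and the y-organoid array the lowest for Spdef, with differences from crypt of -0.47 for o-organoid and -0.87 for y-organoid. Agr2, a protein disulphide isomerase of the endoplasmic reticulum that mucin folding depends on, had signals of 4.99 on the o-organoid, 3.77 on the y-organoid, 6.46 on the crypt and 5.65 on the intestine array. Agr2 was thus 2.76-fold lower on o-organoid and 6.48-fold lower on y-organoid than on crypt. The 2 organoid arrays differed 2.34-fold for Agr2, with o-organoid above y-organoid.

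Tff3 and Spink4 are small secreted products of goblet cells. Tff3, a trefoil peptide that is packed with mucins and acts in epithelial repair, had signals of 7.01 on the o-organoid, 7.25 on the y-organoid, 8.14 on the crypt and 8.18 on the intestine array. Crypt and intestine lay within 0.04 of each other for Tff3, and both organoid arrays were lower, 2.19-fold on o-organoid and 1.85-fold on y-organoid against crypt. Spink4, a Kazal-type serine protease inhibitor, had signals of 6.80 on the o-organoid, 6.21 on the y-organoid, 7.09 on the crypt and 6.75 on the intestine array. Spink4 had the smallest difference between o-organoid and crypt of the measured members, 1.23-fold lower, and it was 1.84-fold lower on y-organoid. Its 60-base probe is shown because it maps across a genomic span of 2125 bases, as a probe over a splice junction does, at chr4:40876206-40878330 of mm9 on the + strand:

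Spink4: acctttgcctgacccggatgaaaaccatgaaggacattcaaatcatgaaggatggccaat

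Zg16 and Fcgbp are proteins of the mucus layer, and both were lower in culture than in crypt. Zg16, a lectin that binds bacterial cell walls, had intensities of 9451 on the o-organoid, 842 on the y-organoid, 213339 on the crypt and 375976 on the intestine array, which are signals of 3.88, 1.58, 8.82 and 9.93 in the same order. Intestine was the highest and y-organoid the lowest for Zg16, the differences from crypt were -4.94 on o-organoid and -7.24 on y-organoid, and the organoid arrays lay apart by 4.91-fold. Fcgbp, a large mucus protein with repeated von Willebrand D domains, had signals of 5.99 on the o-organoid, 4.91 on the y-organoid, 7.65 on the crypt and 6.96 on the intestine array by its brighter probe, and was 3.16-fold lower on o-organoid and 6.70-fold lower on y-organoid than on crypt. The probes are shown because those of Fcgbp gave different patterns. They lie at chr7:134193837-134193896 on the - strand for Zg16, chr7:28905517-28905576 on the + strand for the brighter Fcgbp probe and chr7:28873024-28873083 on the + strand for the dimmer one, all of build mm9:

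Zg16: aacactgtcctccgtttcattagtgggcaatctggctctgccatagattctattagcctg
Fcgbp, brighter probe: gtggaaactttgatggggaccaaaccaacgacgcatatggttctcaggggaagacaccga
Fcgbp, dimmer probe: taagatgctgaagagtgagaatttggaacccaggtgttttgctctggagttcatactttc

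The dimmer Fcgbp probe did not follow the brighter one. Its signals were 0.54 on the o-organoid, 2.01 on the y-organoid, 0.76 on the crypt and 2.16 on the intestine array. On it, y-organoid was 2.38-fold higher than crypt and o-organoid differed from crypt by -0.22, whereas the brighter probe was lower on both organoid arrays. The files annotate the dimmer probe to another transcript of the gene, and the values of Fcgbp on the organoid arrays depend on the choice of probe.

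The transmembrane mucins split into Muc3, with the widest difference between o-organoid and crypt of the measured members, Muc4 and Muc13, with moderate ones, and Muc1, which had no fold among the epithelial arrays. Muc3, a mucin of the enterocyte brush border, had intensities of 261 on the o-organoid, 157 on the y-organoid, 18395 on the crypt and 34581 on the intestine array. Its signals were -1.30 on o-organoid, -0.84 on y-organoid, 5.28 on crypt and 6.48 on intestine, a difference of 96.0-fold for o-organoid and 69.7-fold for y-organoid, both lower than crypt. Both organoid arrays lay far below both fresh tissue arrays for Muc3, and the probe is matched by symbol alone, with a neighbouring gene of a like name in RefSeq.

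Muc13, a transmembrane mucin of the apical surface, had signals of 6.32 on the o-organoid, 6.26 on the y-organoid, 7.82 on the crypt and 8.27 on the intestine array. The organoid arrays differed from each other by 0.06 for Muc13, less than the technical SD of 0.17, and both were lower than crypt, by 2.84-fold on o-organoid and 2.96-fold on y-organoid. Muc4, a transmembrane mucin that binds the receptor ErbB2, had signals of 1.0 on the o-organoid, 1.38 on the y-organoid, 2.93 on the crypt and 1.62 on the intestine array. For Muc4, crypt was the highest array, 3.79-fold above o-organoid and 2.91-fold above y-organoid. The second Muc4 probe, with signals of -3.67, -2.97, -2.30 and -3.93 in that order of arrays, was likewise highest on crypt, but on it intestine was the lowest array. Both Muc4 probes are printed, at chr16:32782278-32782337 for the brighter and chr16:32774896-32774955 for the dimmer, on the + strand of mm9:

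Muc4, brighter probe: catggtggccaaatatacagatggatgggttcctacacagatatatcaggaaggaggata
Muc4, dimmer probe: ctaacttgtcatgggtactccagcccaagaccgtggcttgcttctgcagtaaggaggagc

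Muc1, a transmembrane mucin of glandular epithelia, had signals of -5.86 on the o-organoid, -4.76 on the y-organoid and -6.41 on the crypt array, none of them well above background, and -1.91 on the intestine array. It was at least 6.17-fold lower on crypt than on intestine, at least 8.57-fold lower on o-organoid and at least 5.91-fold lower on y-organoid. No fold of Muc1 was taken among o-organoid, y-organoid and crypt. The intestine sample held other tissue: all 7 pancreatic acinar genes were at least 2-fold lower on crypt, and their summed linear signal was 0.821 on crypt and 5700 on intestine. All 7 smooth muscle genes (median -8.45) and all 7 fibroblast and stroma genes (median -6.78) were lower on crypt by that size too. So were 6 of 7 immune genes, with none higher (median -2.33), where 14.4% of all genes were lower. Of 7 gastric and Brunner gland mucous cell genes, 1 was well above background on crypt and 4 on intestine, with Muc6, Gkn1 and Gkn2 dim on all arrays; their summed signal was 6.8 on crypt and 138 on intestine. Tff2, a trefoil peptide of those glands, had the highest of these signals on intestine (7.07) and was at least 2860-fold lower on crypt. Gkn3 went the other way, 1.83-fold higher on crypt, with signals of 2.73 on crypt and 1.86 on intestine. Tff1 (-3.09) and Muc5ac (-3.81) were faint on intestine, where the dimmest signal past the flag was -4.48. The part of any of these tissues and cells in the Muc1 signal was not tested.

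Against crypt, o-organoid had 7 of 9 measured members at least 2-fold lower (Agr2, Tff3, Zg16, Fcgbp, Muc3, Muc4 and Muc13) and none higher, where 13.5% of 17198 measured genes were lower by that size and 8.57% higher. At 4-fold, 2 were lower, Zg16 and Muc3, against 4.38% of all genes. All 9 differences were below 0, as were 51.4% of all genes, with a median of -1.51 and a range of -6.59 to -0.29, while the median of all genes was -0.03. Relative to the median difference of pan-epithelial genes, Spdef (0.10) and Spink4 (0.28) lay above 0 and 4 members were at least 2-fold lower, Zg16, Fcgbp, Muc3 and Muc4. On that scale the median of all genes was 0.55, and the share of all genes past 2-fold was not counted.

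Against crypt, y-organoid had 6 of 9 members at least 2-fold lower (Agr2, Zg16, Fcgbp, Muc3, Muc4 and Muc13) and none higher, where 13.5% of 17195 genes were lower and 18.5% higher. At 4-fold, 4 were lower (Agr2, Zg16, Fcgbp and Muc3), against 4.39% of all genes. All 9 were below 0, as were 43.8% of all genes. The median was -1.57, from -7.24 to -0.87, and the median of all genes was 0.16. The count was 4 relative to the pan-epithelial median difference, where Muc4 (-0.88) and Muc13 (-0.91) no longer passed 2-fold. It was 8 with quantile normalization and 9 with the deposited table, where Spdef (-1.38), Spink4 (-1.40) and Tff3 (-1.41) passed as well. The median of all genes was 0.82 on the pan-epithelial scale, 0.06 with quantile normalization and -0.36 with the deposited table. The shares of all genes past 2-fold were not counted under these settings. These 2 comparisons share the crypt array, so their values are not independent of each other.

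**Figure D2:**
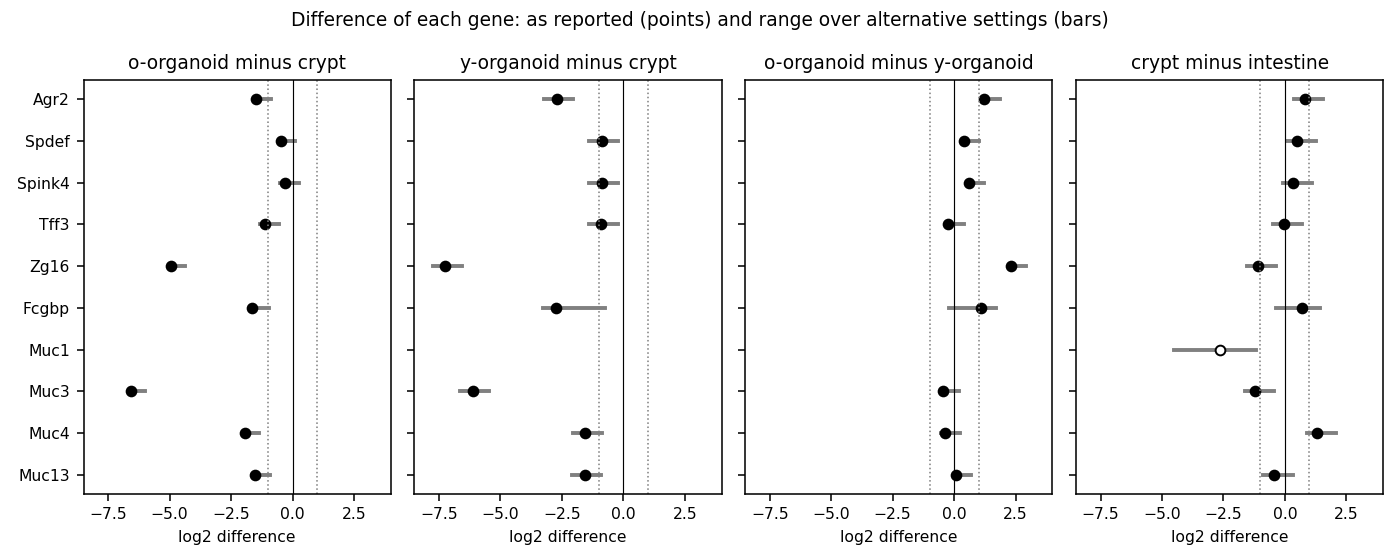
Differences (log2) of each member between o-organoid and crypt, y-organoid and crypt, o-organoid and y-organoid, and crypt and intestine; points are the reported values and grey bars the range over the alternative settings. The open point of Muc1 is a bound; Zg16 and Muc3 lie at -4.94 or lower in both comparisons of organoid with crypt.

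Between the organoids, o-organoid was at least 2-fold higher than y-organoid for 3 of 9 members, Agr2, Zg16 and Fcgbp, and lower for none, where 8.25% of 17293 genes were higher and 19.3% lower. Fcgbp is counted by its brighter probe. On its dimmer probe o-organoid was 2.77-fold lower than y-organoid, the reverse direction. Zg16 alone passed 4-fold, as did 0.948% of all genes, and Spink4 was 1.5-fold higher on o-organoid, while Tff3, Muc3 and Muc4 differed by -0.24, -0.46 and -0.38. With the authors' deposited value table, these last 3 were above 0 (0.40, 0.18 and 0.26). The median over the members was 0.39 and over all genes -0.19. Markers of other epithelial cells differed between the organoids in both directions. In the Paneth cell list 7 of 8 genes were higher on o-organoid by 2-fold or more (summed linear signal 317 on o-organoid and 93.6 on y-organoid), and in the enterocyte list 5 of 9 were: Alpi, Lct, Rbp2, Fabp2 and Apoa4 (262 on o-organoid and 92.5 on y-organoid). In the tuft cell list 6 of 6 were lower on o-organoid by that size (median -1.87), and in the enteroendocrine list 3 of 10 were lower and none higher (median -0.61). Their part in the member differences was not tested.

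Crypt against intestine gave 4 of 10 members at least 2-fold apart: Zg16, Muc1 and Muc3 lower and Muc4 higher on crypt, where 14.4% of 18202 genes were lower and 6.69% higher. Muc1, as a bound, alone passed 4-fold, against 7.36% of all genes. It entered these counts only through the intestine array, so it could not have been called higher on crypt. Zg16 was 2.15-fold and Muc3 2.30-fold lower on crypt, and Muc4 was 2.48-fold higher. The other 6 members, Agr2, Spdef, Spink4, Tff3, Fcgbp and Muc13, lay within 2-fold by the brightest probe. On its dimmer probe Fcgbp was 2.63-fold lower on crypt. The median over the 10 members was 0.15, and that of all genes 0.06. With the deposited value table Tff3 (0.71) and Muc13 (0.31) lay above 0, and relative to the pan-epithelial median difference Spink4 (-0.09) lay below. Transcripts of the sex chromosomes differed too: Xist passed the background flag for intestine (signal -1.17) but not for the other 3 samples, and the Y-linked Ddx3y and Eif2s3y the reverse. Animal and tissue cannot be told apart here.

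Set against intestine, o-organoid had 5 of 10 members at least 2-fold lower (Tff3, Zg16, Muc1, Muc3 and Muc13) and none higher, where 24.3% of genes were lower and 16.0% higher. For y-organoid the count was 6 of 10 lower (Agr2, Zg16, Fcgbp, Muc1, Muc3 and Muc13) and none higher, where 19.9% of genes were lower and 20.5% higher. Muc1 is a bound in both counts. It entered them only through the intestine array, so it could not have been called higher on an organoid array. Muc3 was 221-fold lower on o-organoid and 160-fold lower on y-organoid than on intestine, and Zg16 66.3-fold and 326-fold lower. Spdef and Spink4 were close to intestine on o-organoid, with differences of 0.03 and 0.05.

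**Figure D3:**
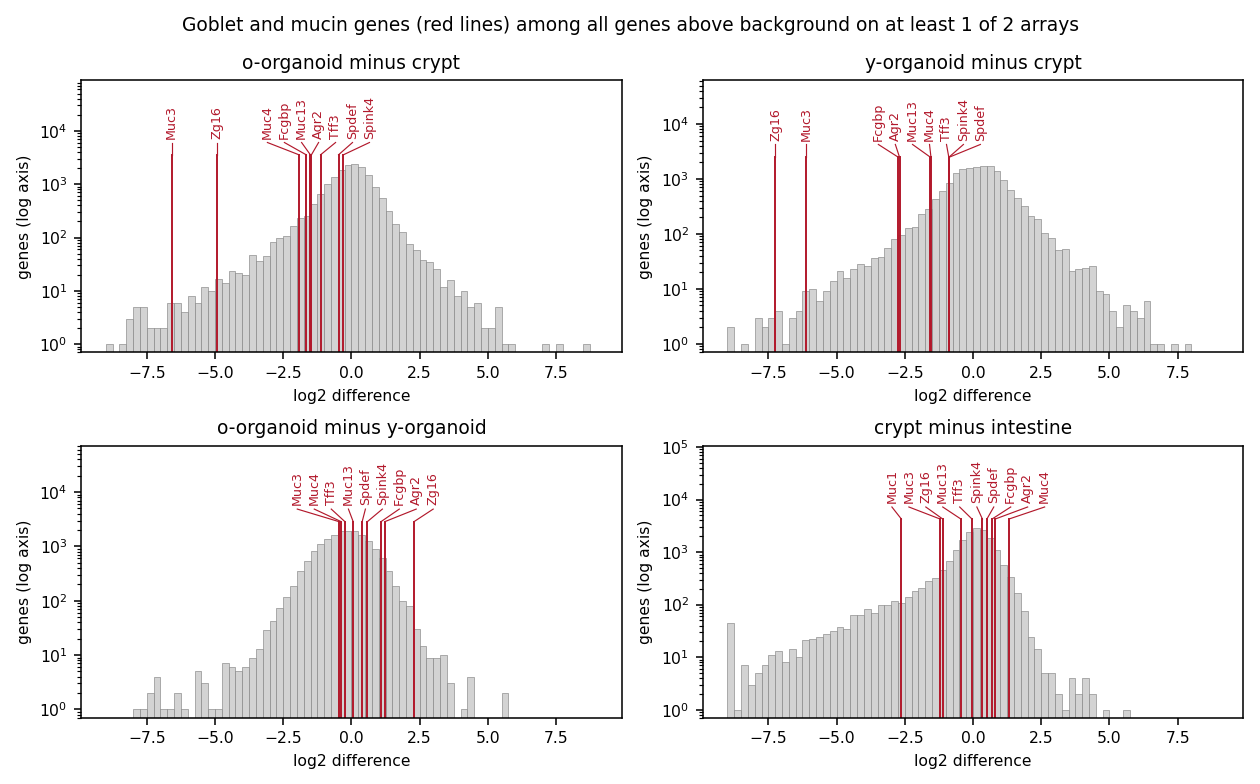
Distribution of differences (log2, clipped at -9 and 9) over all measured genes in the 4 comparisons, on a logarithmic count axis, with the members marked. Members of the comparisons of organoid with crypt lie on the lower side, where 13.5% of genes were at least 2-fold lower in each.

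Across the 9 members measured on all 4 arrays, 7 had both organoid signals below both fresh tissue signals (Agr2, Tff3, Zg16, Fcgbp, Muc3, Muc4 and Muc13), where 22.4% of 14440 genes did. Crypt was the highest array for 5 of 9 (Agr2, Spdef, Spink4, Fcgbp and Muc4), against 19.7% of all genes, and y-organoid the lowest for 6 of 9, against 23.2%. These counts are by the brightest probe: by the dimmer ones, Muc4 lay above intestine on both organoid arrays and Fcgbp above crypt on y-organoid. With the deposited table both organoids lay below for 5 of 9 members and 12.0% of genes. They did so for 7 of 9 and 10.7% when each pair of arrays was set relative to the median difference of the pan-epithelial genes, and for 2 of 9, Zg16 and Muc3, and 1.74% when each array was set relative to their median signal. The count highest on crypt was 7 (33.7% of genes), 3 (2.52%) and 0 (0.256%) under these settings in the same order, and the count lowest on y-organoid was 9 (26.1%), 6 (15.6%) and 3 (2.09%). The 2 pan-epithelial scales differ widely. The list's median signal was 4.58 on o-organoid, 4.42 on y-organoid, 6.72 on crypt and 6.14 on intestine. Its median difference from crypt was only -0.57 on o-organoid and -0.66 on y-organoid. In summed linear signal, the pan-epithelial genes gave 853 on o-organoid, 904 on y-organoid, 1390 on crypt and 1210 on intestine. Of the enterocyte genes, 9 of 10 on o-organoid and 10 of 10 on y-organoid were at least 2-fold lower than on crypt, with sums of 262 on o-organoid, 92.5 on y-organoid, 1690 on crypt and 1990 on intestine. Over all genes 13.5% were lower than on crypt by that size on each organoid array. The part of enterocytes in the Zg16, Muc3 and Muc13 values was not tested.

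Genes listed as other goblet cell products did not all keep the pattern of the members. Tff1 and Tff2 are also on the gastric and Brunner gland list, and the cell type behind each signal was not tested. Of 16 measured on o-organoid and crypt, 5 were at least 2-fold lower (Capn9, Guca2b, Ramp1, Ang4 and Lypd8) and 1 higher, Tff1, with a median of -0.48. Over all genes 13.5% were lower and 8.57% higher by that size. On y-organoid and crypt 12 of 16 were lower and 1 higher, Tff2 (median -1.74), where 13.5% of all genes were lower and 18.5% higher. Between the organoids 11 of 16 were higher and 1 lower, Clca1, on o-organoid (median 1.24), where 8.25% of all genes were higher and 19.3% lower. Clca1 is counted by its brighter probe. Its other probe gave 1.64 between the organoids, and -5.04 on o-organoid and -6.68 on y-organoid against crypt. Capn9, a calpain protease of the digestive tract, was 5.25-fold lower on o-organoid and 13.6-fold lower on y-organoid than on crypt, and Guca2b, the precursor of the secreted peptide uroguanylin, 7.98-fold and 13.3-fold lower. Agr3, a relative of Agr2, was 4.68-fold higher on o-organoid than on y-organoid. Tff1, a trefoil peptide of gastric mucous cells, was at least 5.07-fold higher on o-organoid than on crypt, where it was not well above background.

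The transcription factors of the secretory line were mixed. Of 13, 1 was at least 2-fold lower (Klf4) and 5 higher (Foxa1, Foxa2, Foxa3, Sox9 and Neurog3) on o-organoid than on crypt, with a median of 0.01. Over all genes 13.5% were lower and 8.57% higher there. On y-organoid 4 were lower (Klf4, Atoh1, Gfi1 and Creb3l4) and 3 higher (Foxa2, Sox9 and Neurog3), with a median of 0.13, where 13.5% of all genes were lower and 18.5% higher. Atoh1, which starts the secretory programme, had signals of -0.17 on o-organoid, -1.32 on y-organoid and -0.07 on crypt. Gfi1, a repressor that acts after Atoh1, had -1.06 on o-organoid, -2.65 on y-organoid and -1.06 on crypt, so o-organoid lay within 0.10 of crypt for both and y-organoid below it. Klf4, a factor of goblet cell differentiation, was 4.62-fold lower on o-organoid and 5.16-fold lower on y-organoid. Neurog3, which directs enteroendocrine fate, was 5.18-fold higher on o-organoid than on crypt by its brighter probe. The other Neurog3 probe was not well above background on any array, so this value rests on 1 probe.

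Genes of mucin-type O-glycosylation, which build the sugar chains on mucins, were counted as well. Of 21 measured, 10 were at least 2-fold lower and none higher on o-organoid than on crypt (median -0.95), and 10 lower and 1 higher on y-organoid (median -0.87). Over all genes 13.5% were lower and 8.57% higher on o-organoid, and 13.5% lower and 18.5% higher on y-organoid. The sialyltransferase St3gal1 was 4.11-fold lower on o-organoid and 7.37-fold lower on y-organoid, and St3gal4 was 7.41-fold lower on y-organoid. The gene counted as higher on y-organoid was St6galnac1, at 20.4-fold by a probe with a run of GA repeats, whereas its other probe gave a log2 difference of 0.76, under 2-fold higher on y-organoid. None of the 12 member probes holds such a run. Of 6 other mucins matched to probes, 2 were well above background on o-organoid, 1 on y-organoid, 1 on crypt and 3 on intestine.

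**Figure D4:**
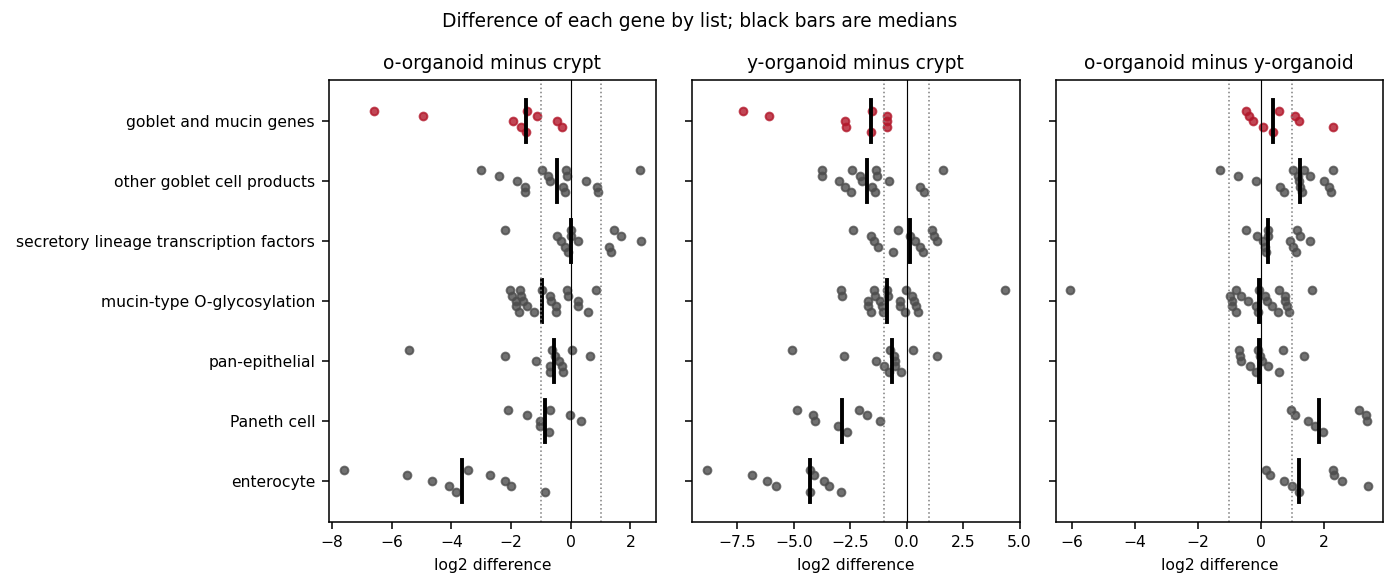
Differences (log2) of the further lists and the members for o-organoid and crypt, y-organoid and crypt, and o-organoid and y-organoid, with 1 point a gene and black bars for medians. Other goblet cell products have a median of -0.48 against crypt on o-organoid and -1.74 on y-organoid.

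The genes with the pattern most like a member's were taken by distance between signals centred on their mean over the 4 arrays, among 14440 genes. Nearest to Tff3 were Dbndd2 (0.07), Lysmd1 (0.07) and Vps9d1 (0.10). Nearest to Spdef were Ptges2 (0.04), Urod (0.05) and Pigs (0.07), and nearest to Muc4 were D830025C05Rik (0.24), Celf5 (0.25) and Ang4 (0.32). Nearest to Zg16 were Slc5a11 (1.28), Apoa4 (1.53) and Reg3a (1.56), all farther off than the neighbours of the other 3.

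Promoters of 7 of the 10 members were found in the RefSeq table of GRCm38.p6, as 8 windows, and 250 bases before the start were searched on both strands for 4 motifs. These were the TATA box TATAAA, then the E-box of the kind read by Atoh1, CAGCTG, then TTTATNG, of the kind read by Cdx factors, and last CAAAGTCCA, of the kind read by HNF4 receptors. TATAAA was in 2 of 8 member windows and in 12.4% of all 32851, CAGCTG in 1 and 13.0%, TTTATNG in 2 and 9.81%, and CAAAGTCCA in 1 and 0.384%. The windows with TTTATNG and CAAAGTCCA are shown as examples, with the motif in capitals. Spink4, Tff3 and Zg16 had no window to search, and a link between a motif and the differences of these genes was not tested. In Muc4 TTTATNG and TATAAA overlap. They lie at chr12:35992675-35992924 for Agr2, chr16:32735636-32735885 for Muc4 and chr16:33794239-33794488 for the second start of Muc13, on the + strand, and they say nothing of binding in these samples:

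Agr2: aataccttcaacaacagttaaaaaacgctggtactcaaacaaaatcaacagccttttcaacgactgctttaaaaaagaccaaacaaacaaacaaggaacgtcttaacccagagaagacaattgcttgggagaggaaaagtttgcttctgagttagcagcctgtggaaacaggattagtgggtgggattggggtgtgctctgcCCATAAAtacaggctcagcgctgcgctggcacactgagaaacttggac
Muc4: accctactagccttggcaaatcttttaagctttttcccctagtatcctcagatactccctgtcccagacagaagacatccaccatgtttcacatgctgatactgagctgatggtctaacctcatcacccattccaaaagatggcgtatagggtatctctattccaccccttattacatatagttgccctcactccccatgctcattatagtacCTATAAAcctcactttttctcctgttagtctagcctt
Muc13: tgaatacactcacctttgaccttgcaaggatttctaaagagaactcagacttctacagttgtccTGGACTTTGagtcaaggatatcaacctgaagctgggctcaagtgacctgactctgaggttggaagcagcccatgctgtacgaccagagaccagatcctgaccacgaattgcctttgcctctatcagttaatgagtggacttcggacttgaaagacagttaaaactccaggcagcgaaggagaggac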

How the data were processed

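RNA of 4 mouse samples was labelled with Cy3 and hybridised to 4 arrays on 1 slide, 1 a group, so the slide cannot be tested. The authors deposited spot intensity values from Agilent Feature Extraction 10.7.3.1, per the file headers. The deposited value table holds a ratio, each spot over 1 constant per array (36.94 for o-organoid, 25.16 for y-organoid, 29.45 for crypt, 40.47 for intestine), with column medians of 1.0; no source used here names its tool. After log2, each array lost its 75th percentile over non-control, non-outlier spots (an intensity of 644.0, 281.9, 472.3 and 386.3 in that order). Repeated spots were averaged, and the brightest probe stood for a gene. Differences of at least 2-fold were counted, with a dim side at its bound, and no test was possible. The rule for named genes was every member, list genes past 4-fold (at most 6 a list) and the 3 nearest patterns of 4 members. Genes named in counts of 5 or fewer, Atoh1, Gfi1, Xist, Ddx3y, Eif2s3y and the summed marker levels were chosen after their values were seen. The members and lists were chosen with earlier results of these data known. Alternatives were normexp with an offset of 50 in limma 3.58.1 under R 4.3.3, quantile scaling, the deposited table, a common 75th percentile, no dim filter, the median over probes, kept outliers and a 4-fold threshold; pan-epithelial scales (by the list's median difference or, for the order of arrays, also its median signal) and other probes of Clca1 and St6galnac1 were added after seeing the data. Python 3.11.15 was used. The arrays' number limits the precision. The steps were tested on simulated data.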

Additional observations from a re-analysis of the deposited data

Results flagged for a closer look

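The dimmer Fcgbp probe gave differences from crypt of -0.22 on o-organoid and 1.25 on y-organoid, which run in opposite directions and lie apart by -1.47. Both exceed the technical SD of repeated spots, 0.13 for o-organoid and crypt and 0.18 for y-organoid and crypt. The difference between them was not tested. The pan-epithelial scale moved the median of all genes between o-organoid and crypt by 0.58, and the common 75th percentile by 0.18. The value of -0.22 is smaller than the first shift and close to the second, so the opposite directions depend on the scaling.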

How the results depend on the processing

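No paired analysis was possible because each group was 1 array, and no replicate could be left out. With a 4-fold threshold the members apart numbered 2 for o-organoid and crypt, 1 for o-organoid and y-organoid and 1 for crypt and intestine. Relative to the pan-epithelial median difference, which was chosen after seeing the data, o-organoid and crypt gave 4. With the deposited value table o-organoid and y-organoid gave 5, and crypt and intestine gave 6, with 1 lower and 5 higher on crypt, because the table moved the median of all genes by 0.64 and 0.74; it moved y-organoid and crypt by -0.52 and o-organoid and crypt by 0.12. Read by the median over its probes, Fcgbp gave -0.19 between o-organoid and y-organoid in place of 1.09. With the other probe, Clca1 gave 1.64 between o-organoid and y-organoid in place of -1.30, and St6galnac1 gave 0.03 between o-organoid and crypt in place of -1.70. Of 296 member differences under the alternatives, 185 moved by less than the technical SD, and 11 changed sign. Zg16 kept its direction in all 4 comparisons and stayed between -4.99 and -4.37 for o-organoid and crypt. The value of Muc1 between crypt and intestine ran from -4.50 without the dim filter to a bound of -1.18 with normexp. The value of -4.50 is no bound but a plain difference from a crypt signal that failed the background flag. Dim signals are less precise: repeated spots below -2 had an SD of 0.155 on o-organoid, 0.284 on y-organoid, 0.180 on crypt and 0.223 on intestine.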

Other observations

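Clca1, a secreted mucus protein of goblet cells, was read by a pair of probes that disagreed, and it was chosen after its values were seen. The brighter probe had signals of 5.64 on o-organoid, 6.94 on y-organoid, 6.33 on crypt and 6.32 on intestine. The probe that the files name Clca3 had 1.80 on o-organoid, 0.16 on y-organoid, 6.83 on crypt and 6.47 on intestine, 32.9-fold lower on o-organoid and 102-fold lower on y-organoid than on crypt. The brighter probe is annotated as Clca1. The other probe, though annotated as Clca3, was placed under Clca1 by the RefSeq gene names. Which of these probes follows the mucus protein was not tested.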
